A study of Danio rerio with 6 samples.

Results

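Pigment cell and melanin genes were examined in whole larvae at 6 dpf. They are a set of 10 genes named by symbol: *tyr*, *dct*, *tyrp1a*, *tyrp1b*, *pmela*, *pmelb*, *mitfa*, *gch2*, *xdh* and *pnp4a*. Of these, 8 have a row under that symbol among the 15336 genes of the count files, and all 8 passed the filter on low counts. *tyrp1a* and *xdh* were not analysed here. The RefSeq table gives *xdh* as an older synonym of *aox5*, but that row was kept under its own name and not counted as a member. The comparison asks how loss of the channel gene *panx1a* changed the larval transcriptome. It used 3 libraries of wild-type larvae of the TL strain (TL controls) and 3 libraries of *panx1a*-/- larvae of the same strain. The knock-out line was made with TALENs, carries a short frameshift deletion in a coding exon, and descends from a single founder. Heterozygous carriers were in-crossed, and all experiments used progeny of a later generation of homozygous fish. Whether the sequenced TL controls were siblings of the *panx1a*-/- larvae is not given, so family cannot be told apart from genotype. Larvae of both genotypes had no treatment. How many larvae went into a library, and whether the libraries came from separate clutches, is not given in the sources used here, so the p-values measure only the spread between these libraries, which may be technical.

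The pigment cells of the zebrafish body arise from the neural crest. Melanophores make black melanin, xanthophores make yellow pteridines, and iridophores hold reflecting platelets of the purine guanine. The retinal pigment epithelium behind the photoreceptors also makes melanin, but it comes from the eye cup and not from the neural crest. Melanin is built from tyrosine by the enzymes of the tyrosinase family, on fibrils of the Pmel protein inside melanosomes. RNA of a whole larva therefore mixes melanin genes of skin and eye, and in such bulk samples fewer cells of a type and less RNA per cell cannot be told apart.

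Between 13054759 and 21472044 reads were counted on genes in a library, and 3 counts, taken as the smallest level the depth can show, came to between 0.155 and 0.209 CPM. CPM are counts scaled to the library size with TMM factors. Reads outside annotated genes made up 30.2% to 42.9% of uniquely aligned reads in TL controls and 48.4% to 59.4% in *panx1a*-/- libraries. As a check of the labels, *panx1a* itself was read 110, 114 and 147 times in TL controls and 22, 17 and 13 times in *panx1a*-/- larvae (log2 fold change −2.72, edgeR-adjusted p = 0.00793). Of 26 markers of large tissues, 9 were downregulated (34.6%, against 11.8% of all genes tested) and 2 upregulated (7.69%, against 9.88%) in *panx1a*-/- larvae. None was at 0. Their summed level was 22720 to 61800 CPM in TL controls and 12170 to 16160 CPM in *panx1a*-/- larvae. The sum is weighted to a few genes and does not show how the other markers behaved. Mean levels in TL controls and *panx1a*-/- larvae were 15719 and 4493 CPM for *mylpfa*, 9478 and 3570 CPM for *ckma*, and 7386 and 1364 CPM for *krt4*. Of the 26 markers, 6 had a positive log2 fold change and 20 a negative one. TL replicate 2 had the largest sum. The part of this shift in the pigment results was not tested.

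The members tied to yellow and to reflecting pigment, *gch2* and *pnp4a*, were upregulated in *panx1a*-/- larvae, while the melanin genes and *mitfa* did not pass the test. *pnp4a*, a purine nucleoside phosphorylase used as an iridophore marker, rose 1.96-fold, and *gch2*, the GTP cyclohydrolase that opens pteridine synthesis in xanthophores, rose 1.86-fold. Calls were made at an adjusted p below 0.05 in edgeR's quasi-likelihood test, adjusted by Benjamini and Hochberg over all genes tested, and such values are given as edgeR-adjusted p. By this rule 0 members were downregulated, and none had a negative change at an unadjusted p-value below 0.05 either, with edgeR or with DESeq2. Over all 12797 genes tested, 9.88% were called upregulated and 11.8% downregulated, so that 2 of 8 members (25%) upregulated stands against 9.88%. Those calls were 1264 and 1506 genes, against 1026 and 607 with library size only and 874 and 1925 with upper-quartile factors. The median log2 fold change of the 8 members was 0.52, against −0.06 over all genes tested.

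*pnp4a* stood at 10.4, 10.8 and 7.85 CPM in TL controls and at 24.6, 16.3 and 15.9 CPM in *panx1a*-/- larvae, in the order of the replicate numbers. The groups did not overlap, and *panx1a*-/- replicate 1 was the highest. Its log2 fold change was 0.97 (standard error 0.23, 95% interval 0.44 to 1.50, edgeR-adjusted p = 0.0335). *gch2* was measured at 7.92, 4.35 and 6.81 CPM in TL controls and at 13.7, 10.2 and 11.6 CPM in *panx1a*-/- larvae. Here too the groups were apart, and TL replicate 2 was the lowest library. The log2 fold change of *gch2* was 0.89 (standard error 0.26, 95% interval 0.30 to 1.48, edgeR-adjusted p = 0.0451). Groups did not overlap, with *panx1a*-/- higher, for 23.4% of all genes tested. Both calls were lost without TL replicate 2, without TL replicate 3, without *panx1a*-/- replicate 1 or without *panx1a*-/- replicate 3, and both were kept without either of the other libraries. Over all genes, those 4 fits called 1 to 38 genes upregulated, against 1264 with all libraries. Across the 6 fits the log2 fold change stayed between 0.74 and 1.08 for *pnp4a* (edgeR-adjusted p from 0.0221 to 0.130) and between 0.67 and 1.08 for *gch2* (edgeR-adjusted p from 0.0216 to 0.138). The call of *gch2* was also lost under upper-quartile scaling or no scaling factors (edgeR-adjusted p = 0.0578 and 0.0586). When the share of reads outside genes entered the fit as a covariate, neither was called (edgeR-adjusted p = 0.999 for both), and the log2 fold change was 0.96 for *pnp4a* and 0.38 for *gch2*. That share separates the genotypes without overlap, so its part and that of the genotype cannot be told apart. In the RefSeq annotation of the GRCz12tu assembly, *sox12* lies within the span of *pnp4a*. The reads were counted on the danRer11 build with an annotation that is not given, so whether this overlap touched the *pnp4a* counts is not known.

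For the melanin enzymes *dct*, *tyrp1b* and *tyr*, the groups overlapped. *dct*, the dopachrome tautomerase, was at 29.4, 30.4 and 44.1 CPM in TL controls and at 66.2, 32.3 and 63.4 CPM in *panx1a*-/- larvae. The libraries *panx1a*-/- 1 and 3 lay above all TL libraries, and *panx1a*-/- replicate 2 lay among them. *dct* differed by 0.64 on the log2 scale (standard error 0.30, 95% interval −0.04 to 1.32, edgeR-adjusted p = 0.133). Without *panx1a*-/- replicate 2 it was 0.91 and passed the test (edgeR-adjusted p = 0.0235). *tyrp1b*, a tyrosinase-related protein that acts on later melanin intermediates, was at 77.1, 94.1 and 110 CPM in TL controls and at 132, 75.7 and 117 CPM in *panx1a*-/- larvae. The lowest library of all was *panx1a*-/- replicate 2, and the log2 fold change was 0.21 (95% interval −0.36 to 0.78, edgeR-adjusted p = 0.532).

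*tyr*, the tyrosinase that catalyses the first and rate-limiting step of melanin synthesis, was the only member with a negative value. Its counts were low, at 28, 45 and 91 in TL controls and at 47, 19 and 26 in *panx1a*-/- larvae. In CPM these were 1.53, 2.72 and 4.70 against 2.72, 1.01 and 1.81. TL replicate 3 was the highest and *panx1a*-/- replicate 2 the lowest, with TL replicate 1 below *panx1a*-/- replicates 1 and 3. The log2 fold change of *tyr* was −0.70, with an interval that runs from −1.82 to 0.43 (edgeR-adjusted p = 0.292). The interval includes 0 as well as falls larger than the estimate.

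The Pmel proteins form the fibrils on which melanin is laid down. *pmela* was at 67.7, 73.5 and 110 CPM in TL controls and at 167, 67.3 and 119 CPM in *panx1a*-/- larvae. *pmelb*, its paralog, was at 9.01, 6.17 and 12.0 CPM and at 16.8, 6.06 and 14.0 CPM. For both genes *panx1a*-/- replicates 1 and 3 were above every TL library and *panx1a*-/- replicate 2 was below every TL library. On the log2 scale the difference was 0.49 for *pmela* (95% interval −0.30 to 1.28, edgeR-adjusted p = 0.289) and 0.43 for *pmelb* (95% interval −0.48 to 1.35, edgeR-adjusted p = 0.412). The ratio of both paralogs does not depend on scaling between libraries. *pmelb* made up 11.8%, 7.74% and 9.86% of the reads of the pair in TL controls and 9.12%, 8.25% and 10.6% in *panx1a*-/- larvae. The widest 95% Wilson interval was 10.2% to 13.5%, in TL replicate 1, and covers counting error only. The mean share was 9.79% ± 2.00 in TL controls and 9.32% ± 1.18 in *panx1a*-/- larvae (SD, n = 3 each, two-sided exact permutation test, p = 0.8, where 3 libraries against 3 cannot go below 0.1).

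*mitfa* encodes the transcription factor that melanophores need to form, and fish without it lack them while the eye stays pigmented. It was a low transcript, with 21, 21 and 24 counts in TL controls and 36, 38 and 18 counts in *panx1a*-/- larvae. The TL controls were tightly grouped at 1.15 to 1.27 CPM. Replicates 1 and 2 of *panx1a*-/- were higher, at 2.09 and 2.02 CPM, while replicate 3, at 1.25 CPM, fell within the TL range. *mitfa* differed by 0.56 on the log2 scale (95% interval −0.15 to 1.27, edgeR-adjusted p = 0.193). Its paralog *mitfb*, expressed in the eye, had 1 to 5 counts in every library and did not pass the filter.

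**Figure D1:**
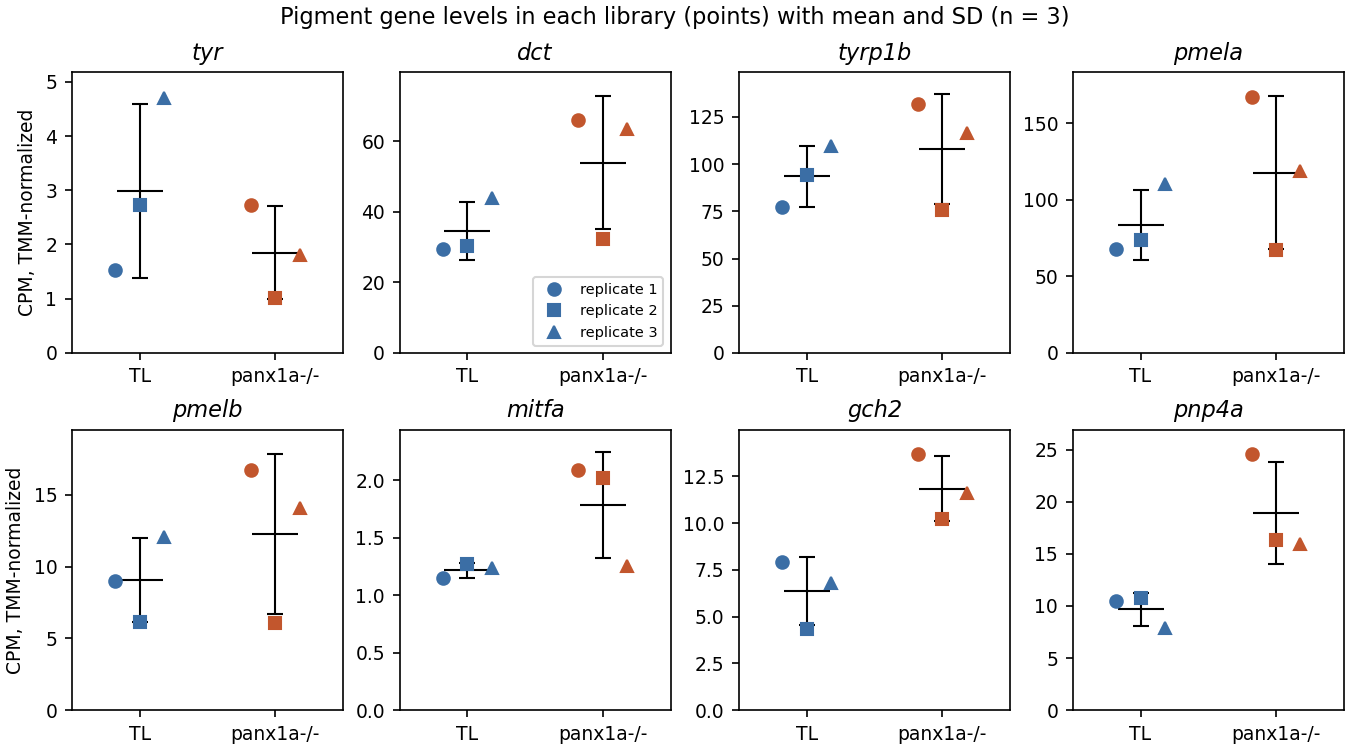
Normalized level (CPM, linear axis from 0) of the 8 pigment genes in each TL and *panx1a*-/- library, with the marker shape giving the replicate number and the horizontal bar and whiskers giving mean and SD (n = 3). Only *gch2* and *pnp4a* show groups that do not overlap, and *panx1a*-/- replicate 2 (square) is the lowest *panx1a*-/- library for *tyr*, *dct*, *tyrp1b*, *pmela* and *pmelb*.

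**Figure D2:**
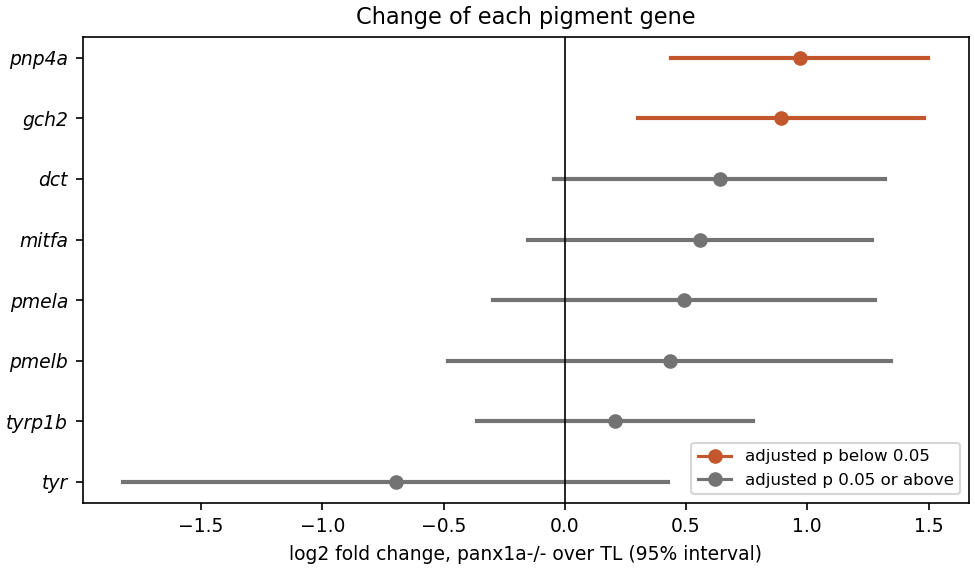
Log2 fold change of each pigment gene in *panx1a*-/- larvae over TL controls, with 95% intervals of edgeR's quasi-likelihood fit. The intervals of *pnp4a* and *gch2* lie above 0, and *tyr* is the only gene with a negative estimate, at −0.70.

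The make-up of the pigment reads was then compared within each library, which removes any effect of scaling between libraries. This comparison was chosen after the values had been seen. Each of the 8 genes was expressed as a share of the reads on all 8. The share of *tyr* was 0.749%, 1.22% and 1.59% in TL controls and 0.641%, 0.479% and 0.527% in *panx1a*-/- larvae, and it was lower in each *panx1a*-/- library than in each TL library. *tyrp1b* made up 37.8%, 42.1% and 37.0% of the pigment reads in TL controls and 31.1%, 35.9% and 34.0% in *panx1a*-/- larvae, also without overlap. *dct* went the other way without overlap, from 14.4%, 13.6% and 14.9% to 15.6%, 15.3% and 18.5%. For levels of all genes tested, groups did not overlap in 23.4% with *panx1a*-/- higher and in 24.1% with it lower. Levels are not shares, and the 8 shares constrain each other because they add up to one total. These rates are therefore only a rough reference, and 3 of 8 shares without overlap is not read as a result. Groups overlapped for the other 5 shares, including those of *gch2* (1.95% to 3.88% in TL controls, 3.22% to 4.84% in *panx1a*-/- larvae) and *pnp4a* (2.65% to 5.11%, and 4.64% to 7.74%). Relative to the other pigment genes, *gch2* and *pnp4a* did not separate the genotypes. Within the melanin enzymes alone, *tyr* held 1.42%, 2.14% and 2.97% of the reads of *tyr*, *dct* and *tyrp1b* in TL controls and 1.36%, 0.927% and 0.994% in *panx1a*-/- larvae. The mean share was 2.17% ± 0.776 and 1.09% ± 0.231 (SD, n = 3 each), given without a test because the share was chosen for this difference. The 95% Wilson intervals of TL replicate 1 (0.981% to 2.04%) and *panx1a*-/- replicate 1 (1.02% to 1.80%) overlapped, so the gap between these libraries is within counting error.

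**Figure D3:**
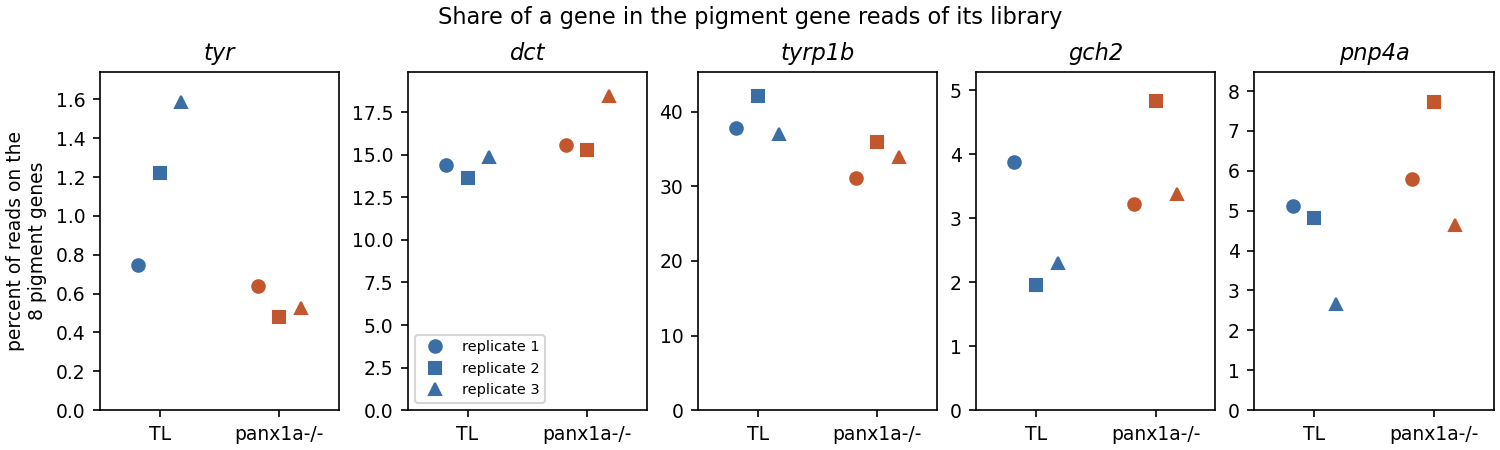
Share of *tyr*, *dct*, *tyrp1b*, *gch2* and *pnp4a* in the reads on the 8 pigment genes of a library (percent, axes from 0), by genotype and replicate number. The shares of *tyr* and *tyrp1b* are lower, and that of *dct* higher, in every *panx1a*-/- library than in every TL library, while *gch2* and *pnp4a* overlap.

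For *dct*, *tyrp1b*, *pmela* and *pmelb*, TL replicate 3 was the highest TL library, and *panx1a*-/- replicates 1 and 2 were the highest and lowest of their group. Within the TL controls they did not all follow each other, since *pmelb* was lower in replicate 2 than in replicate 1 and the others were higher. Their sum was 183, 204 and 276 CPM in TL controls and 382, 181 and 313 CPM in *panx1a*-/- larvae. The retinal pigment epithelium markers *rpe65a*, *stra6*, *rlbp1b* and *rdh5*, which serve the visual cycle and vitamin A uptake, summed to 97.3, 116 and 137 CPM in TL controls and to 283, 94.3 and 276 CPM in *panx1a*-/- larvae. *panx1a*-/- replicate 2 was thus the lowest of all 6 libraries in both sums, and replicates 1 and 3 were above every TL library in both. The wider list of 23 epithelium genes summed to 1100, 1729 and 1623 CPM in TL controls and 1408, 1035 and 1265 CPM in *panx1a*-/- larvae. In this sum *panx1a*-/- replicate 2 was again the lowest, but replicates 1 and 3 were not above every TL library. Much of it came from *bhmt*, also expressed in liver or gut, at 499, 1206 and 1019 CPM and at 415, 403 and 237 CPM. *cx43*, also found in glia and heart, added 215, 101 and 142 CPM and 301, 254 and 370 CPM. The wider sum is thus weighted to *bhmt* and *cx43* and does not show how the other epithelium genes behaved. Outside the 4 markers, *rgra*, *rgrb* and *lratb.2* had *panx1a*-/- replicates 1 and 3 above every TL library and replicate 2 below every TL library. The remaining genes of the wider list did not. For *slc16a8* and *otx2a* replicate 2 was also above every TL library, and for *rpe65b* it was the highest of all. The 4 markers thus do not stand for the whole list. *rpe65a*, the isomerase of the visual cycle, was at 23.5, 21.3 and 35.1 CPM and at 88.8, 22.2 and 78.5 CPM (log2 fold change 1.24, edgeR-adjusted p = 0.0887, and 0.0244 with DESeq2). The log2 fold change of *rlbp1b*, which encodes a retinal-binding protein, was 0.73 (edgeR-adjusted p = 0.163). For *gch2*, *pnp4a* and *mitfa*, in contrast, *panx1a*-/- replicate 2 was above every TL library. The melanophore markers *slc24a5*, *slc45a2*, *mc1r*, *kita* and *mlpha* summed to 55.3, 80.7 and 78.3 CPM in TL controls and 94.3, 54.0 and 61.7 CPM in *panx1a*-/- larvae. In this sum too *panx1a*-/- replicate 2 was the lowest of all libraries and replicate 1 the highest, while replicate 3 lay among the TL controls. The sum is weighted to *slc45a2*, at 38.8, 47.5 and 51.1 CPM in TL controls and 75.8, 37.9 and 49.7 CPM in *panx1a*-/- larvae. *slc24a5* was also lowest in *panx1a*-/- replicate 2 and highest in replicate 1. For *mlpha*, *kita* and *mc1r* the lowest library was *panx1a*-/- replicate 3, and replicate 1 was not the highest. None of the 4 melanophore markers that passed the filter was called. The part of eye and body cells in the melanin values was not tested.

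**Figure D4:**
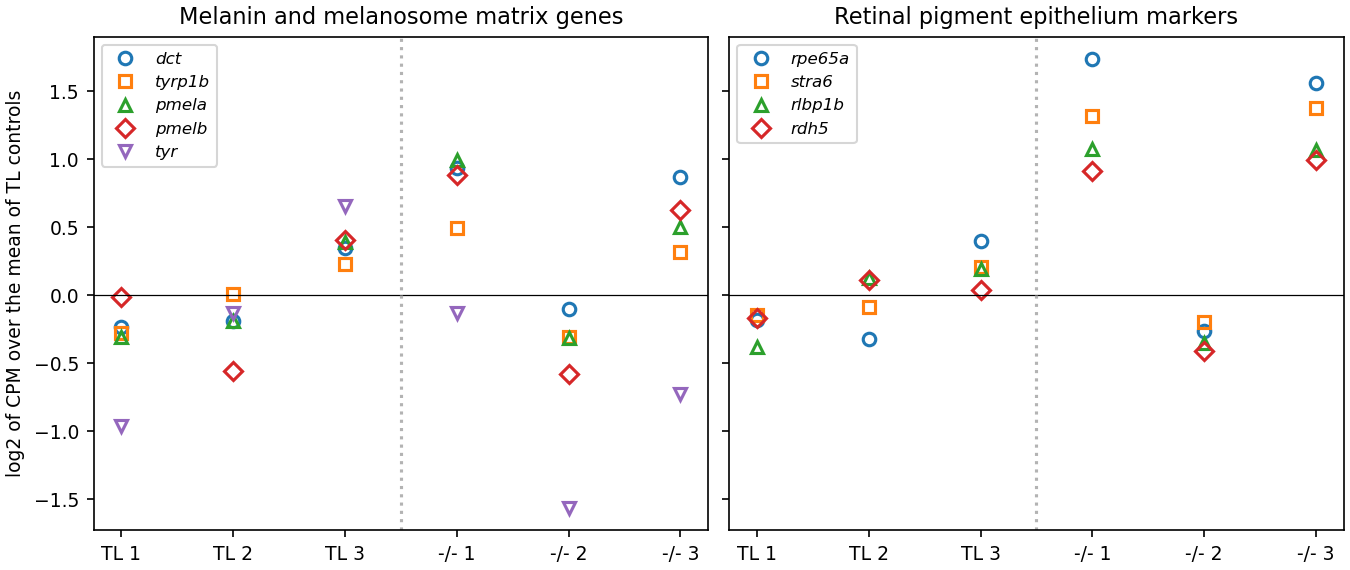
Level of melanin and melanosome matrix genes (left) and of retinal pigment epithelium markers (right) in each library, as log2 of the CPM over the mean of the TL controls. In both panels *panx1a*-/- replicate 2 lies below the mean of the TL controls for every gene, and *panx1a*-/- replicates 1 and 3 lie above every TL library except for *tyr*.

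The genes around the members were followed with lists written from gene symbols. Their calls depend on which libraries are in the fit. Without TL replicate 3 or without *panx1a*-/- replicate 3 at most 3 genes were called in either direction over all genes. Without TL replicate 1, 2392 genes were called upregulated and 2316 downregulated, and without *panx1a*-/- replicate 2, 1582 and 2076. Of 34 tested genes of melanosome assembly, transport and movement, 5 were upregulated (14.7%, against 9.88% of all genes tested) and 2 downregulated (5.88%, against 11.8%). Their median log2 fold change was −0.07 and became 0.19 with library size as the only scaling. *gpr143*, the melanosomal receptor altered in human ocular albinism, rose from 3.61 ± 0.562 to 7.11 ± 1.62 CPM (SD, n = 3 each, log2 fold change 0.97, edgeR-adjusted p = 0.0381). *ap3d1*, a subunit of the adaptor complex that sorts cargo to lysosome-related organelles, rose by 1.19 on the log2 scale (edgeR-adjusted p = 0.0392). *slc24a4a*, an ion exchanger of the family of *slc24a5*, had the largest rise of the list, 1.90 (edgeR-adjusted p = 0.0457). TL replicate 1 stood apart at 16.3 CPM, against 4.59 and 5.99 CPM in the other TL controls, and without it the log2 fold change was 2.65. Going the other way, *atp7a*, the copper pump that supplies tyrosinase with its metal in mammals, dropped by 1.03 on the log2 scale, from 7.01 ± 1.68 to 3.42 ± 0.793 CPM (SD, n = 3 each, edgeR-adjusted p = 0.0408). *hps5*, a component of the complex that delivers melanosomal proteins, dropped by 1.49 (edgeR-adjusted p = 0.0414). The remaining upregulated genes, named after their values were seen, were *dtnbp1a* and *vps18*. The genes most tied to melanin content were not called: *slc45a2* was at 45.8 ± 6.29 and 54.5 ± 19.4 CPM, and *slc24a5* at 1.78 ± 0.203 and 1.83 ± 0.868 CPM (SD, n = 3 each, edgeR-adjusted p = 0.469 and 0.960). For *mlpha*, which links melanosomes to their motor, the log2 value was −0.78 (edgeR-adjusted p = 0.103).

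Among signals to melanophores, 2 of 17 tested genes were downregulated (11.8%) and 0 upregulated. Over all genes tested these shares were 11.8% and 9.88%, so the downregulated share of the list was that of all genes. *kitlga*, the ligand of the receptor kinase Kita that melanophores need to survive and migrate, fell from 4.97, 6.77 and 6.97 CPM in TL controls to at most 3.94 CPM in *panx1a*-/- larvae (log2 fold change −0.90, edgeR-adjusted p = 0.0459). Its receptor *kita* was at 3.09 ± 0.598 and 1.75 ± 0.254 CPM (SD, n = 3 each) and just missed the threshold (log2 fold change −0.81, edgeR-adjusted p = 0.0634), although its groups did not overlap, as was so for 24.1% of all genes tested with *panx1a*-/- lower. The G protein gene *gnaq* dropped by 1.20 on the log2 scale (edgeR-adjusted p = 0.0344). With DESeq2 and with edgeR's exact test, 1 gene of this list was upregulated, where they called 14.7% and 13.4% of all genes. They called 5 and 4 genes of the list downregulated, where 14.8% and 17.6% of all genes were. Hormone genes of background adaptation were sparse. The melanocortin receptor *mc1r* had 6, 12 and 16 counts in TL controls and 3, 8 and 1 counts in *panx1a*-/- larvae, below the filter. Log2 fold changes were −0.26 for *pmch*, which encodes melanin-concentrating hormone, and 0.61 for *pomca*, the precursor of melanocortins (edgeR-adjusted p = 0.740 and 0.446). *asip2b*, a melanocortin antagonist, was chosen after its values were seen. It had 27, 12 and 49 counts in TL controls and 5, 7 and 7 counts in *panx1a*-/- larvae, did not pass the filter, and had a log2 fold change of −2.04 in the fit without one (edgeR-adjusted p = 0.0366).

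Of 20 tested regulators of neural crest and pigment cell fate, 1 was upregulated (5%) and 2 were downregulated (10%, against 11.8% of all genes). DESeq2 and edgeR's exact test each called 6 of them downregulated, where they called 14.8% and 17.6% of all genes. *tfap2e*, an AP-2 factor of melanophore differentiation, rose from 17.2 ± 3.84 to 30.9 ± 6.82 CPM (SD, n = 3 each, log2 fold change 0.85, edgeR-adjusted p = 0.0409). *alx4b* dropped by 2.11 on the log2 scale (edgeR-adjusted p = 0.0298), from 14, 22 and 26 counts in TL controls to 4, 4 and 5 counts in *panx1a*-/- larvae. *sox9a*, which also marks cartilage, dropped by 1.06 (edgeR-adjusted p = 0.0451). *sox10*, the factor that switches on *mitfa*, was at 9.31 ± 0.346 and 10.7 ± 1.72 CPM (SD, n = 3 each, log2 fold change 0.20, edgeR-adjusted p = 0.413).

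Of 22 tested genes of the pteridine and xanthophore list, 2 were upregulated and 2 downregulated (9.09% each, near the 9.88% and 11.8% of all genes tested). The median log2 fold change was −0.34, or −0.08 without scaling factors. *mycbp2*, whose loss weakens yellow pigment in zebrafish, rose by 0.87 on the log2 scale (edgeR-adjusted p = 0.0403). The other upregulated gene was *th* (log2 fold change 0.89, edgeR-adjusted p = 0.0319), the tyrosine hydroxylase of dopamine neurons, which uses the cofactor made by the same route. Going down was *csf1ra*, the receptor kinase that xanthophores require. It was at 3.55, 4.35 and 6.87 CPM in TL controls and at 1.80, 1.49 and 2.22 CPM in *panx1a*-/- larvae, with no overlap (log2 fold change −1.43, standard error 0.32, edgeR-adjusted p = 0.0321). *csf1ra* is also expressed in macrophages. *bscl2l* dropped by 1.14 (edgeR-adjusted p = 0.0363). *aox5*, a xanthophore oxidase, was at −0.94 on the log2 scale (edgeR-adjusted p = 0.140) and *pax7a*, a xanthophore factor, at −0.38 (edgeR-adjusted p = 0.331). *gch1*, the paralog of *gch2*, was at 1.13 and 1.20 CPM on average (log2 fold change 0.10, edgeR-adjusted p = 0.888). *sprb*, chosen after its values were seen, had 3, 4 and 8 counts in TL controls and 0, 1 and 0 counts in *panx1a*-/- larvae. It did not pass the filter and had a log2 fold change of −3.38 in the fit without one (edgeR-adjusted p = 0.0477). The 5 xanthophore markers *csf1ra*, *aox5*, *pax7a*, *slc2a15b* and *scarb1* summed to 38.5 to 63.0 CPM in TL controls and 41.7 to 45.2 CPM in *panx1a*-/- larvae, with overlapping ranges and none at 0. This sum is weighted to *scarb1*, at 14.4, 37.1 and 32.1 CPM and at 20.7, 21.5 and 25.5 CPM, and to *slc2a15b*. Groups overlapped for *scarb1*, *slc2a15b* and *pax7a*. For *aox5*, as for *csf1ra*, they did not, with *panx1a*-/- lower, as for 24.1% of all genes tested.

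Purine genes changed in both directions. Of 30 tested genes of purine synthesis and salvage, 5 were upregulated (16.7%, against 9.88% of all genes tested) and 6 downregulated (20%, against 11.8%). The upregulated genes, none among the 5 largest changes and named after their values were seen, were *impdh1a*, *impdh2*, *gmps*, *hprt1l* and *prps1b*. The first 3 encode enzymes between inosine and guanosine monophosphate, and in mammals the counterpart of *impdh1a* is the form of photoreceptors. The related *impdh1b* was not called (log2 fold change −0.29, edgeR-adjusted p = 0.235). *gmps* rose from 31.0 ± 4.26 to 50.1 ± 5.10 CPM (SD, n = 3 each, log2 fold change 0.69, edgeR-adjusted p = 0.0331), *impdh2* 1.70-fold (edgeR-adjusted p = 0.0298) and *impdh1a* 2.14-fold (edgeR-adjusted p = 0.0308). *gmpr*, whose enzyme runs from guanosine back to inosine monophosphate, dropped by 2.10 (edgeR-adjusted p = 0.0331). *ppat*, the first enzyme of synthesis from precursors, fell from 28.6 ± 5.29 to 10.9 ± 1.03 CPM (SD, n = 3 each, log2 fold change −1.39, edgeR-adjusted p = 0.0221). *atic*, which carries out the last steps of that route, dropped by 1.69 (edgeR-adjusted p = 0.0262). Adenosine deaminase *ada* and the urate-degrading *uraha* were also downregulated, by 1.50 and 1.29 on the log2 scale (edgeR-adjusted p = 0.0336 and 0.0351), and the remaining downregulated gene, also named after its value was seen, was *aprt*. *paics*, from the middle of the route, was not called (log2 fold change −0.08, edgeR-adjusted p = 0.737). These enzymes act in many tissues, and the share of pigment cells in their RNA was not tested.

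Of 12 tested genes of the iridophore list, 1 was upregulated (8.33%, against 9.88% of all genes tested), and 3 were downregulated (25%, against 11.8%). The upregulated gene was *crip2* (log2 fold change 0.96, edgeR-adjusted p = 0.0343). The downregulated genes were *atic*, also counted in the purine list, *fhl2b* (−1.67, edgeR-adjusted p = 0.0458) and the potassium channel gene *kcnj13* (−1.28, edgeR-adjusted p = 0.0446), which shapes the adult stripes. *fhl2b* was a low transcript, with 24, 30 and 55 counts in TL controls and 5, 12 and 14 counts in *panx1a*-/- larvae. Being on the list does not make a gene particular to iridophores, and some of its genes also stand in other lists here. The share of iridophores in the RNA of the list genes was not tested. The defining receptor *ltk* was listed at 0 in every library. *ednrba*, the endothelin receptor of iridophores, had 8, 22 and 16 counts in TL controls and 2, 3 and 4 counts in *panx1a*-/- larvae, below the filter, with a log2 fold change of −2.20 in the fit without a filter (edgeR-adjusted p = 0.0397). *tfec*, an early factor of the lineage, was at −0.48 on the log2 scale (edgeR-adjusted p = 0.393). The 3 markers *ltk*, *ednrba* and *tfec* together reached only 1.04 to 2.30 CPM in TL controls and 0.691 to 1.04 CPM in *panx1a*-/- larvae.

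Of 22 tested genes of the retinal pigment epithelium other than the members, 16 had a positive log2 fold change and 6 a negative one. Over all genes tested, 46.8% had a positive one. The median of the list was 0.48. Of the 22 genes, 3 were upregulated and 2 downregulated (13.6% and 9.09%, against 9.88% and 11.8% of all genes). *slc16a8*, the lactate transporter of the epithelium in mammals, was at 2.73, 2.48 and 1.65 CPM in TL controls and at 11.0, 3.61 and 9.18 CPM in *panx1a*-/- larvae (log2 fold change 1.79, edgeR-adjusted p = 0.0336). *otx2a*, of a factor family that specifies the epithelium, rose by 1.12 (edgeR-adjusted p = 0.0300), and *cx43*, a connexin also found in glia and heart, by 1.01 (edgeR-adjusted p = 0.0484). *bhmt* and *dhrs9*, which dropped by 1.37 and 1.18 on the log2 scale (edgeR-adjusted p = 0.0399 and 0.0306), are also expressed in liver or gut. DESeq2 and edgeR's exact test each called 8 genes of this list upregulated, where they called 14.7% and 13.4% of all genes.

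**Figure D5:**
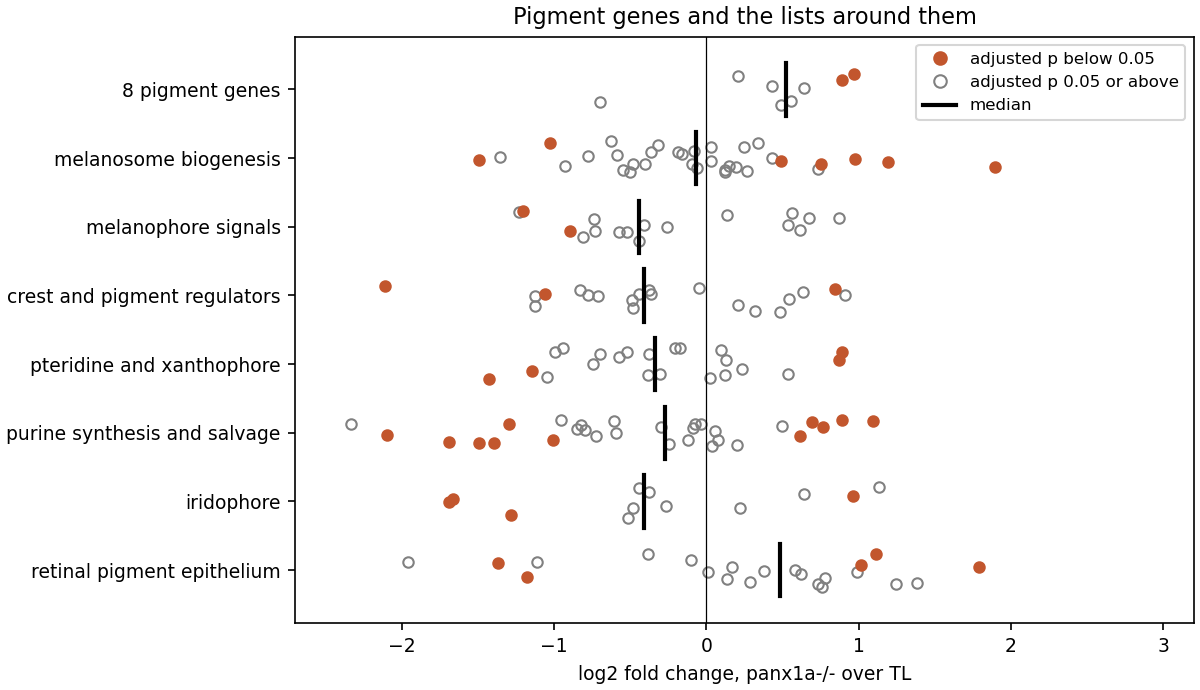
Log2 fold change in *panx1a*-/- larvae over TL controls of the 8 pigment genes and of the tested genes of 7 lists, 1 point a gene, with the median as a vertical bar and vertical spread added for legibility. The pigment genes (median 0.52) and the retinal pigment epithelium list (0.48) lie mostly above 0, while the other 5 lists apart from melanosome biogenesis have medians between −0.44 and −0.27 (−0.21 and −0.04 without scaling factors).

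The keratins *krt4* and *krt5*, which mark the epidermis, fell by 2.44 and 2.39 on the log2 scale (edgeR-adjusted p = 0.0289 and 0.0308). Together they were at 6709 to 16240 CPM in TL controls and at 954 to 2792 CPM in *panx1a*-/- larvae. *col1a1a* dropped by 1.98 (edgeR-adjusted p = 0.0323), and the pancreatic genes *ela2* and *prss1* by 2.97 and 2.35 (edgeR-adjusted p = 0.0458 and 0.0490). TL replicate 2 stood far above the other TL controls for both pancreatic genes, and without it the log2 fold change of *ela2* was −1.24 (edgeR-adjusted p = 0.0465) and *prss1* was not called (edgeR-adjusted p = 0.0590). The 2 upregulated tissue markers, named after their values were seen, were the photoreceptor genes *rho* and *gnat2*. They rose by 1.28 and 1.66 on the log2 scale (edgeR-adjusted p = 0.0425 and 0.0314).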

How the data were processed

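Total RNA of 6 dpf larvae was sequenced as paired-end reads of directional libraries. For each library the authors deposited unnormalized read counts by gene symbol. The submitters' processing notes name bcl2fastq 2.17, FastQC 0.11.2, Trim Galore 0.4.4, TopHat2 2.0.11, HTSeq 0.6.1p2 and the danRer11 build. The strand setting and annotation are not given in the sources used here. Rows of reads assigned to no gene stayed out of library sizes. Genes were filtered with edgeR's default filter, scaled by TMM and tested with edgeR 4.0.16 (R 4.3.3), quasi-likelihood test with robust estimation and genotype as the only factor. P-values were Benjamini-Hochberg adjusted over all 12797 genes tested. Standard errors are the size of the log2 fold change over the square root of F. Alternatives used DESeq2 1.42.0, edgeR's exact test, limma-voom (limma 3.58.1), other scaling and filters, a replicate block, a covariate and leaving out libraries. Fits were tested on simulated data. Libraries of a genotype differed by more than sampling noise (chi-square per degree of freedom 46.7 to 197). Members and lists were chosen with earlier results of these data known. All members are named. From each list the called genes with the largest change, at most 5, and a fixed set of markers are named. Gene lengths were not used, so levels are compared between libraries and not between genes. List symbols without a row were matched by RefSeq synonym where possible (3 symbols). In RefSeq (GRCz12tu), non-coding genes overlap *pmela* and *pnp4a*. Without the strand setting and the annotation used, whether this touched the counts of these genes is not known. Paralogs such as *pmela* and *pmelb* can share reads.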

Additional observations from a re-analysis of the deposited data

Results flagged for a closer look

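Reads outside annotated genes were counted for no gene, and their share entered only the alternative fit that had it as a covariate. Their share was above that of the controls: the lowest *panx1a*-/- library had 48.4% and the highest TL control 42.9%, within ranges of 48.4% to 59.4% and 30.2% to 42.9%. What part this has in the values of the pigment genes cannot be told apart from the genotype.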

How the results depend on the processing

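The number of pigment genes called upregulated was 2 in the edgeR test with TMM and 2 with RLE factors, either other filter, DESeq2, edgeR's exact test, limma-voom and the replicate block (all genes: 1743 upregulated, 2139 downregulated). Upper-quartile factors left 1 and library size only left 1 (*pnp4a* in both), and a covariate for reads outside genes left 0, in a fit that called 1 of all genes. With a library left out it ranged from 0 to 3, and upregulated calls over all genes from 1 to 2392 (without *panx1a*-/- replicate 2 it was 3, with *dct*). The number called downregulated was 0 in every fit. With the covariate, the log2 fold change reversed for *tyr* (0.36) and *pmelb* (−0.086), both far from the threshold (edgeR-adjusted p = 0.999). All other alternatives kept the direction of every member. The median log2 value of all genes was −0.06 with TMM, −0.17 with upper-quartile factors and 0.17 without factors, where the median of the members was 0.52, 0.41 and 0.75. Under the replicate block, *pnp4a* and *gch2* were called (edgeR-adjusted p = 0.0165 and 0.0199) and no other member. The block ended the calls of *ela2* and *prss1* (edgeR-adjusted p = 0.0984 and 0.0795). Deviations of same-numbered libraries correlated across genes at 0.12, 0.30 and 0.08, and those of differently numbered libraries at −0.21 to 0.14. These values do not settle whether the numbers are pairs. The sample titles only number the libraries, so the main test left the numbers out and the block is given as an alternative. The difference in the *pmelb* share ranged from −1.49 to 0.52 percentage points with a library left out, around −0.46. In each list the calls fell to 0 in at least 1 fit with a library left out and with the covariate. DESeq2 called 1993 genes upregulated (edgeR test: 1264). DESeq2, the exact test and the block called 6, 6 and 8 crest regulators (edgeR test: 2), 5, 4 and 3 melanophore signals (edgeR test: 2) and 2, 4 and 5 pteridine and xanthophore genes (edgeR test: 2) downregulated, where 14.8%, 17.6% and 16.7% of all genes were. In the same order they called 8, 8 and 6 epithelium genes (edgeR test: 3) and 3, 2 and 2 crest regulators (edgeR test: 1) upregulated, where 14.7%, 13.4% and 13.6% of all genes were. The share of *tyrp1b* in *tyrp1a* plus *tyrp1b* was not run, since *tyrp1a* was not analysed. *mitfa* and *tyr* had 18 to 91 counts a library, the fewest of the members.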
